A study of Homo sapiens with 4 samples.

Results

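MuvB, B-MYB and FOXM1 form the machinery that switches on the genes of late cell division. The 8 genes described here are the activators FOXM1, MYBL1 and MYBL2 and the MuvB core subunits LIN9, LIN37, LIN52, LIN54 and RBBP4. They were chosen by name, with earlier results of these data known. The probe set with the highest mean over the 4 arrays stands for each gene. Of the 8, 7 had a probe set annotated to that gene alone, among 10707 named genes kept, and all 7 were kept by a filter on low values. LIN37 shares its only probe set with PSENEN, so it was left out of the expression counts and medians.

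The study asked which transcripts of melanoma cells change once p300 can no longer acetylate histones. WM35 cells come from a human melanoma in the radial growth phase, when the tumour spreads within the epidermis. The small molecule C646 inhibits p300 and its relative CBP. The groups were C646 at 20 µM for 6 h, DMSO at 0.2% for 6 h, C646 at 20 µM for 24 h and DMSO at 0.2% for 24 h. Each group was measured on 1 Affymetrix exon array, so differences between arrays have no replicate check.

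Values are log2 expression, and a difference of 1 is a 2-fold change. The 16579 probe sets kept had a mean of at least 3.96. Array medians lay between 4.39 and 4.41. The C646 array of 24 h stood apart, correlating with the other arrays at 0.976 to 0.979 over all probe sets, against 0.991 to 0.996 among the other 3. Every C646 value at 24 h rests on that array. The label of melanoma cells was checked against melanocyte genes, and 6 of 8 named markers had a kept probe set. Among them PMEL read 10.95 and 10.87 for C646 and DMSO at 6 h. The 6 had a median difference between C646 and DMSO of 0.45 at 6 h and 0.57 at 24 h, from TYRP1 at -0.27 to MITF at 0.79 at 6 h, and from PMEL at 0.078 to S100B at 1.49 at 24 h. Keratinocyte, fibroblast, leukocyte and endothelial markers had kept probe sets for 1 of 4, 2 of 5, 1 of 4 and 0 of 3 genes, and the measured ones differed between C646 and DMSO by -0.11 to 0.13 at 6 h and by -0.21 to 0.16 at 24 h. On the DMSO array of 6 h KRT10 read 5.99, LUM 5.65 and COL1A1 4.04. The leukocyte marker CD68 read 7.62 there, below PMEL and S100B at 8.77. That was above MLANA at 7.45, SOX10 at 7.23, MITF at 6.81 and TYRP1 at 6.33, so the levels do not separate all markers by cell type.

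MuvB is a DNA-binding scaffold whose partners change through the cell cycle. In resting cells it joins E2F4 or E2F5, a DP protein and RBL1 or RBL2 to form the repressor DREAM. In dividing cells it binds B-MYB, the product of MYBL2, which then helps to bring FOXM1 to promoters of G2 and mitosis. LIN54 contacts a short promoter element called the cell cycle genes homology region (CHR), LIN9 and LIN52 form the surface that holds B-MYB, and LIN37 is needed for repression by DREAM. RBBP4 is a histone-binding protein that also belongs to several other chromatin complexes. p300 and CBP are known coactivators of both B-MYB and FOXM1.

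Promoter windows of RefSeq (GRCh38.p14), reaching from 250 bases before the annotated start to 50 bases after it, were found for 6 of the 8 genes, with 11 windows in all. FOXM1 and MYBL1 were not matched. The searched letters were TTTGAA and TTCGAA for the CHR, TTTCCCGC, TTTGGCGC, TTTCGCGC, TTCCCGCC, TTGGCGCC and TTTGGCGG for E2F, and TAAACA for forkhead proteins such as FOXM1, on both strands. TTTCCCGC and TTCCCGCC can overlap. CHR letters were in 4 of the 11 member windows (36.4%), against 16.4% of all 35114 windows. Among the 4 are both LIN54 windows, which overlap and hold the same copy, so that copy is counted 2 times. E2F letters were in 1 member window (9.09%), against 6.33% of all, and forkhead letters were in 0, against 12.3% of all. The stretches below run from 110 bases before the start to 10 after it. They are shown for MYBL2 and LIN9, the lowest at 24 h, and for members with a match inside the stretch. They read 5′ to 3′ in the direction of the gene, and capitals mark the searched letters.
MYBL2, chr20:43667004-43667123, plus strand: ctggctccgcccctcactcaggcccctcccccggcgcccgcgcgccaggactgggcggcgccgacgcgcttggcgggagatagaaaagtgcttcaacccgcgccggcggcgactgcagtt
LIN9, the third of 3 windows, chr1:226309155-226309274, minus strand: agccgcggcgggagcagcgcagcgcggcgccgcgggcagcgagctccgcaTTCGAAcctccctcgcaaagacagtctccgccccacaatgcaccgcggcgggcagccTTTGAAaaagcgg
LIN54, the first of 2 windows, chr4:83010814-83010933, minus strand: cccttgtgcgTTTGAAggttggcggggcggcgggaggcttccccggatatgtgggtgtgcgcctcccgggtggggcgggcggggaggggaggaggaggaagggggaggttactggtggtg
LIN52, chr14:74084846-74084965, plus strand: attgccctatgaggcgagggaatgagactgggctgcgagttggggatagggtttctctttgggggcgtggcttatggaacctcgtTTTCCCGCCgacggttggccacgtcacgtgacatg

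In LIN9 the TTTGAA begins 3 bases before the start and the TTCGAA 60 bases before it, and its other 2 windows hold no searched letters. In LIN54 the TTTGAA begins 100 bases before the start, and its second window holds the same copy. In LIN52 the joined E2F letters begin 25 bases before the start. The whole window of MYBL2 holds none of the searched letters, which says only that these exact letters are absent there, and the same holds for both windows of RBBP4. One of the 2 windows of LIN37 holds TTTGAA, beginning 182 bases before its start.

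After 24 h, all 3 activators were lower with C646 than with DMSO. MYBL2 and FOXM1 were more than 2-fold lower and MYBL1 was not. After 6 h each was lower by less than 2-fold.

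MYBL2 encodes B-MYB, which carries MuvB from repression to activation in S phase. It read 8.95 on the C646 array and 9.15 on the DMSO array at 6 h, and 7.28 on the C646 array and 9.14 on the DMSO array at 24 h. Both DMSO arrays and the C646 array of 6 h lay close together, and the C646 array of 24 h lay far below them. The difference was -0.20 at 6 h and -1.87 at 24 h, so that the level under C646 was 87.3% and 27.4% of that under DMSO. Between the DMSO arrays, MYBL2 differed by -0.0063. Of the 16579 probe sets, MYBL2 had the 129th lowest difference at 24 h and the 2222nd lowest at 6 h.

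FOXM1 encodes the forkhead factor that joins B-MYB and MuvB in G2. It read 7.11 with C646 and 7.31 with DMSO at 6 h, and 6.17 with C646 and 7.25 with DMSO at 24 h. The C646 array of 24 h was again the low one, and the other 3 lay within 0.20 of each other. The difference was -0.20 at 6 h and -1.08 at 24 h, when 47.2% of the DMSO level was left. The DMSO arrays differed by -0.064.

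MYBL1 encodes A-MYB, a relative of B-MYB best known from germ cells. It read 6.17 with C646 and 6.66 with DMSO at 6 h, and 5.78 with C646 and 6.65 with DMSO at 24 h. Both C646 arrays lay below both DMSO arrays, as they did for MYBL2, FOXM1, LIN9 and LIN54, but the gap at 6 h was wider for MYBL1. The DMSO arrays differed by -0.0018. The difference was -0.48 at 6 h and -0.88 at 24 h, or 71.5% and 54.5% of the DMSO level. Its 6 h difference was the lowest of the 7 members, and the 360th lowest of all probe sets. The 6 h difference of MYBL1 was 55.3% of its 24 h difference, against 18.9% for FOXM1 and 10.5% for MYBL2.

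**Figure D1:**
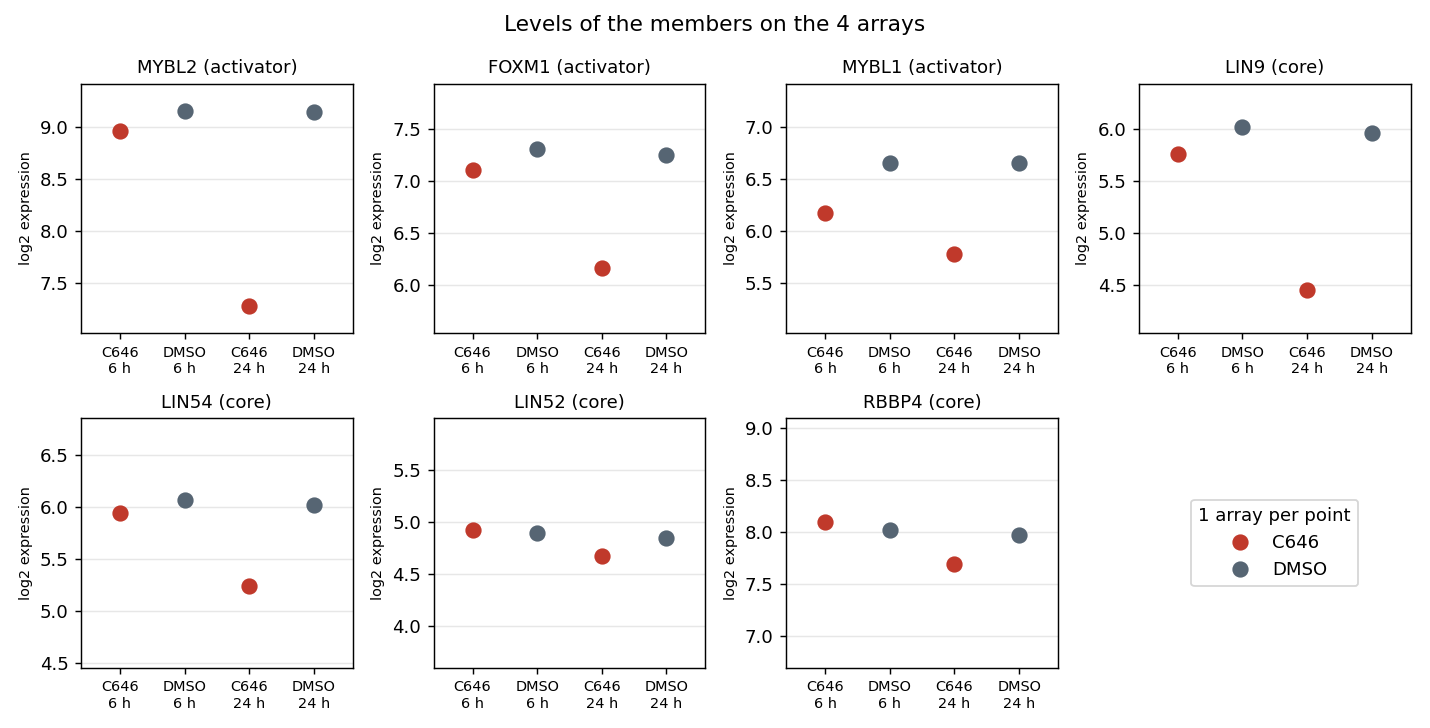
Log2 expression of each member on the C646 and DMSO arrays of 6 h and 24 h, with 1 point per array and axes of equal length. The C646 array of 24 h is the lowest point in all 7 panels, and the widest gap at 6 h is that of MYBL1, at 6.17 against 6.66.

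The core subunits went apart at 24 h. LIN9 was lower by more than 2-fold and LIN54 by less, while LIN52 and RBBP4 were lower by small amounts.

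LIN9 encodes the subunit that contacts B-MYB. It read 5.75 with C646 and 6.02 with DMSO at 6 h, and 4.45 with C646 and 5.96 with DMSO at 24 h. The C646 array of 24 h was low and the other 3 lay close together. The difference was -0.27 at 6 h and -1.51 at 24 h, or 83.1% and 35.1% of the DMSO level, with -0.061 between the DMSO arrays. This was the 219th lowest difference of all probe sets at 24 h.

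LIN54 encodes the DNA-binding subunit. It read 5.94 with C646 and 6.07 with DMSO at 6 h, and 5.23 with C646 and 6.02 with DMSO at 24 h. The C646 array of 24 h lay below the other 3. The difference was -0.13 at 6 h and -0.78 at 24 h, when 58.0% of the DMSO level was left.

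LIN52 encodes the small subunit that the kinase DYRK1A phosphorylates to favour DREAM. It read 4.92 with C646 and 4.90 with DMSO at 6 h, and 4.68 with C646 and 4.84 with DMSO at 24 h. All 4 values lay within 0.24 of each other. The differences of 0.020 and -0.17 fell inside the central 95% of the differences between the DMSO arrays over all kept probe sets, which ran from -0.36 to 0.32.

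RBBP4 read 8.10 with C646 and 8.02 with DMSO at 6 h, and 7.70 with C646 and 7.98 with DMSO at 24 h. The differences were 0.074 and -0.28, also inside that range. RBBP4 has 5 probe sets of its own. The one used here, 2328990, is numbered among probe sets of chromosome 1, where the gene lies. The other 4 are numbered among probe sets of chromosomes 3, 5 and 6, and near-identical copies of RBBP4 could share their signal. Those 4 differed by -0.34 to -0.092 at 6 h and by -0.65 to -0.19 at 24 h. The sign at 6 h therefore depends on the probe set, since of the 5 only 2328990 was above 0, and the mean of all 5 was -0.17 at 6 h and -0.40 at 24 h. A further probe set, 2405152, is annotated to RBBP4 with another gene, so it was left out. It was at -0.38 at 6 h and 0.34 at 24 h, so its sign at 24 h was opposite to that of the 5.

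**Figure D2:**
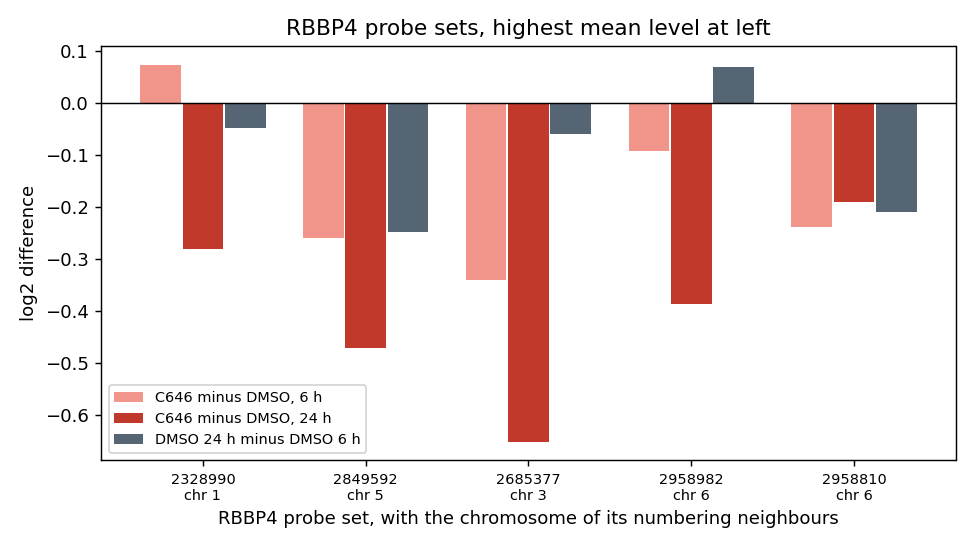
Log2 differences of the 5 RBBP4 probe sets, labelled by number and by the chromosome of their numbering neighbours, for C646 minus DMSO at 6 h and 24 h and for DMSO at 24 h minus 6 h. Each of the 5 is below 0 at 24 h, and only 2328990 is above 0 at 6 h, at 0.074. Probe set 2405152, shared with another gene, is not shown.

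Across the members, 0 of 7 differed by at least 2-fold at 6 h, where 0.115% of all probe sets were at least 2-fold lower and 0.127% at least 2-fold higher. At 24 h, 3 of 7 were at least 2-fold lower, namely MYBL2, LIN9 and FOXM1, where 2.5% of all probe sets were. No member was at least 2-fold higher at 24 h, where 1.14% of probe sets were. The member median was -0.20 at 6 h and -0.88 at 24 h, and the medians of all kept probe sets were -0.0024 and 0.030. Between the DMSO arrays 0 of 7 members differed by 2-fold, where 0.0905% of probe sets were lower and 0.0543% higher, and all 7 lay between -0.064 and -0.0018. Between C646 at 24 h and C646 at 6 h, 2 of 7 were at least 2-fold lower, MYBL2 at -1.68 and LIN9 at -1.30, where 2.41% of probe sets were, and 0 were higher, where 0.869% were. At 1.5-fold, 5 of 7 members were lower at 24 h, with MYBL1 and LIN54 added, where 5.34% of probe sets were. At that fold 0 of 7 were lower at 6 h (1.26% of probe sets), 0 of 7 between the DMSO arrays (0.609%) and 4 of 7 between the C646 arrays (5.19%).

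At 24 h the median was -1.08 over the 3 activators and -0.53 over the 4 core subunits, so the activators were lower by 0.55. LIN37 is not among the 4, and the probe set it shares with PSENEN was at 0.044 at 6 h and 0.16 at 24 h. At 6 h the medians were -0.20 and -0.056. The ranges overlapped at both times. At 24 h the activators ran from -1.87 to -0.88 and the core subunits from -1.51 to -0.17, with LIN9 below FOXM1 and MYBL1. The order at 24 h, from the lowest, was MYBL2, LIN9, FOXM1, MYBL1, LIN54, RBBP4 and LIN52. Neighbours in that order cannot be told apart by a replicate spread, as each rests on 1 array per group. These are whole cultures, so fewer dividing cells and less transcript per dividing cell cannot be told apart.

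**Figure D3:**
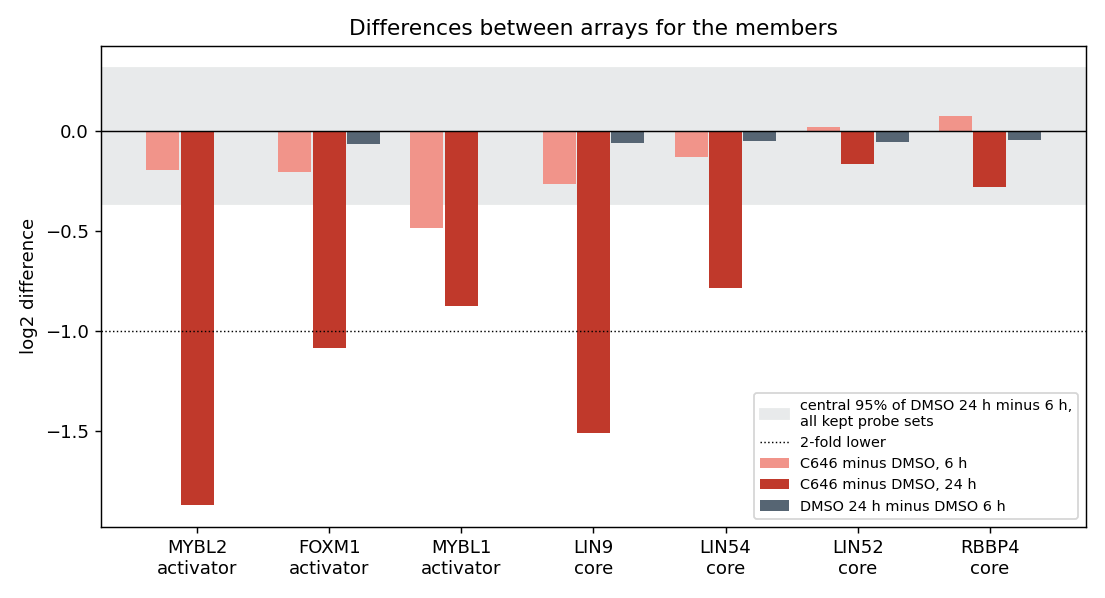
Log2 differences between arrays for the 3 activators and 4 core subunits, with C646 minus DMSO at 6 h and 24 h and DMSO at 24 h minus 6 h as bars. The shaded band from -0.36 to 0.32 is the central 95% of the DMSO differences over all kept probe sets, and at 24 h MYBL2, FOXM1, MYBL1, LIN9 and LIN54 reach below it.

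The C646 array of 24 h was set against both DMSO arrays with limma, fitted on all kept probe sets. This compares a single treated array, the one that stood apart, with the spread of the DMSO pair, so treatment and that array cannot be told apart. limma moderates the spread of each probe set toward that of all kept probe sets. Each SE therefore rests on other probe sets too, as for MYBL2, whose own DMSO arrays differed by only -0.0063. In this comparison all 3 activators fell, as did LIN9 and LIN54, so that 5 of 7 members fell and 0 rose, where 6.9% of all probe sets fell and 6.68% rose. MYBL2 fell by 1.87 ± 0.096 (SE, limma adjusted p = 0.0039), LIN9 was at -1.54 ± 0.088 (limma adjusted p = 0.0039) and FOXM1 at -1.12 ± 0.093 (limma adjusted p = 0.0074). MYBL1 was at -0.88 ± 0.087 (limma adjusted p = 0.011) and LIN54 at -0.81 ± 0.088 (limma adjusted p = 0.014). RBBP4 at -0.30 and LIN52 at -0.20 did not pass (limma adjusted p = 0.11 and 0.20). The fit has 1 residual degree of freedom, assumes that the lone C646 array varies as the DMSO arrays do, and also takes in the change of the vehicle with time, which lay between -0.064 and -0.0018 for the members.

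Over both times, with time as a term in limma on all 4 arrays, 0 of 7 members and 0% of all probe sets passed, and the lowest adjusted p of limma was 0.448. Before adjustment 1828 probe sets had a limma p under 0.05. MYBL1 was the only member among these, with an effect of -0.68 ± 0.14 (SE). The error of this fit is the disagreement between both times' effects, and MYBL2, at -1.03 ± 0.43, had the largest. With 3 arrays the time term has to be dropped as well. Treatment alone, without the C646 array of 6 h, is the fit described before, with 2252 probe sets called and 5 of 7 members fallen, and treatment alone without any of the other arrays called 0.

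Of the 7 named partners that turn MuvB into the repressor DREAM, 6 were measured, as RBL2 has only a probe set with several symbols. At 24 h 1 was at least 2-fold lower, where 2.5% of all probe sets were, and 0 were higher, where 1.14% were. Over both times 0 passed in limma, where 0% of all probe sets did. RBL1, a pocket protein that bridges E2F and MuvB, read 6.82 with C646 and 7.28 with DMSO at 6 h, and 5.38 with C646 and 7.10 with DMSO at 24 h. It was at -0.46 and -1.71, and at -1.80 at 24 h against both DMSO arrays. The DP gene TFDP1 was at -0.19 and -0.77, and at -0.66 at 24 h against both DMSO arrays. E2F5 was at 0.21 and 0.47, and at 0.44 at 24 h against both DMSO arrays. RBL1, TFDP1 and E2F5 all did not pass over both times (limma adjusted p = 0.448 for each). E2F4 was at 0.099 and -0.00085. TFDP2 was at 0.076 and 0.27, and DYRK1A, the kinase of LIN52, was at -0.11 and -0.040.

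The enzymes that act on FOXM1 and B-MYB were mostly lower at 24 h. Of 9 named genes 7 were measured and 5 were at least 2-fold lower, where 2.5% of all probe sets were. Cyclin A2 (CCNA2), whose kinase relieves autoinhibition of FOXM1 and B-MYB, was at -0.24 at 6 h and -2.86 at 24 h. MELK, a kinase that phosphorylates FOXM1, was at -0.57 and -2.37. CDK1 was at -0.53 and -2.13, cyclin B1 (CCNB1) at -0.27 and -1.86, and PLK1, a mitotic kinase that activates FOXM1, at -0.16 and -1.66. When every probe set of PLK1 was averaged, PLK1 was at -1.26 at 24 h. All 5 fell at 24 h against both DMSO arrays in limma, where 6.9% of probe sets fell, and 0 passed over both times. With both DMSO arrays as control at 6 h as well, CCNA2 was at -0.047, CCNB1 at -0.11 and PLK1 at -0.035. The kinase gene CDK2 was at 0.35 and -0.17, and FZR1, the adaptor through which the anaphase-promoting complex destroys FOXM1, was at -0.12 and -0.36, and neither passed.

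Of the related genes, RBBP7, the close relative of RBBP4, was at -0.013 at 6 h and -0.38 at 24 h. MYB, the founding member of the MYB family, was below the filter, with a mean of 3.72. FOXO1, a forkhead factor outside the FOXM class, was at -0.061 and 0.12. CREBBP, which encodes CBP, was at -0.11 and 0.016, and EP300 has only a probe set with several symbols. CDKN1A, the p53 target that brings about DREAM assembly by inhibiting cyclin-dependent kinases, was at -0.16 and 0.85, and MDM2, another p53 target, at -0.092 and 1.48. Both rose at 24 h against both DMSO arrays (limma adjusted p = 0.018 and 0.012), and neither passed over both times (limma adjusted p = 0.63 and 0.54).

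RBBP4 can be set beside the complexes that share it. Of 11 named subunits 9 were measured, with a median of -0.12 at 6 h and -0.43 at 24 h, and 3 were at least 2-fold lower at 24 h, where 2.5% of all probe sets were. These were CHAF1A at -1.55 and CHAF1B at -1.51, the large subunits of the chromatin assembly factor CAF-1, and the Polycomb methyltransferase EZH2 at -1.42. When every probe set of EZH2 was averaged, EZH2 was at -1.74. EED, a Polycomb partner of EZH2, was at -0.052, and the deacetylase HDAC1 was at 0.30. CHAF1A, CHAF1B and EZH2 also stand on the list of E2F targets below.

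The genes that MuvB, B-MYB and FOXM1 are known to drive were lower at 24 h in nearly all cases. Of 42 named late cell cycle targets 37 were measured, and their median was -0.29 at 6 h and -1.91 at 24 h. This list and the G1/S list below were chosen with earlier results of these data known, so their counts are descriptive. At 24 h 34 of 37 were at least 2-fold lower, where 2.5% of all probe sets were. At 6 h 0 of 37 were, where 0.115% of all probe sets were, although 35 lay below 0, where 8386 of 16579 probe sets did. The lowest at 24 h were CDCA8, a chromosomal passenger gene, at -3.29, the kinesin KIF14 at -3.15 and the spindle gene ASPM at -2.90. The highest were the phosphatase gene CDC25B at -0.75 and the securin gene PTTG1 at -0.62. Over both times 0 of 37 passed in limma, where 0% of all probe sets did. In the DMSO arrays the list differed between the times by a median of -0.24, against -0.050 for the members. All 37 lay below 0 there, where 9079 of 16579 probe sets did. The list shares CCNA2, CCNB1, CDK1 and PLK1 with the enzymes above.

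Targets that DREAM reaches through E2F sites at the G1/S boundary were measured for 34 of 39 named genes, with a median of -0.088 at 6 h and -1.71 at 24 h. At 24 h 29 of 34 were at least 2-fold lower, where 2.5% of all probe sets were. Over both times 0 of 34 passed in limma, where 0% of all probe sets did. UHRF1, a maintenance factor of DNA methylation, was at -3.86, cyclin E2 (CCNE2) at -3.67 and the repressor E2F8 at -3.28. SLBP, which binds histone mRNA, was at -0.58, and PCNA, the sliding clamp, at -0.47. At 24 h MYBL2 lay inside the spread of both lists, with 19 of 37 late targets and 11 of 34 G1/S targets lower than it. FOXM1 lay above most of them, with 34 of 37 and 27 of 34 lower. LIN52 and RBBP4 lay above all 37 and all 34. At 6 h MYBL1 lay below all 34 G1/S targets, and 11 of 37 late targets were lower than it.

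**Figure D4:**
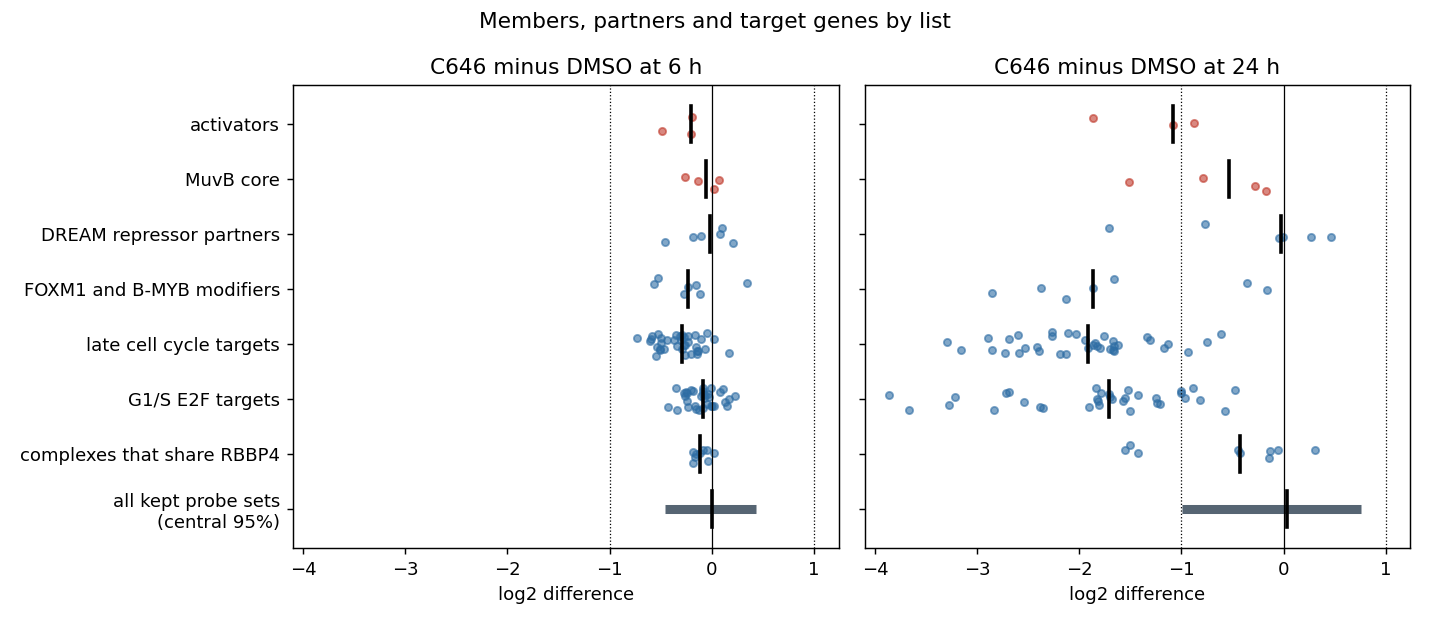
Log2 differences of C646 minus DMSO at 6 h and 24 h, with a point per measured gene, a black line at each list's median and dotted lines at 2-fold. The grey bar is the central 95% of all kept probe sets, from -0.46 to 0.43 at 6 h and from -0.997 to 0.76 at 24 h, and the target lists lie at -1.91 and -1.71 at 24 h.

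The promoter letters divided the target lists. CHR letters were in 66.7% of 45 windows of late targets and 6.38% of 47 windows of G1/S targets, against 16.4% of all windows. E2F letters were in 15.6% and 59.6%, against 6.33% of all. The lists hold genes known for such elements, so these shares describe the lists and are not independent of how they were drawn. One stretch of each kind is shown, from the gene of each list that was lowest at 24 h by its highest-mean probe set, with capitals and limits as above. When every probe set was averaged, UHRF1 was at -3.40, above CCNE2 at -3.67.
CDCA8, chr1:37692406-37692525, plus strand: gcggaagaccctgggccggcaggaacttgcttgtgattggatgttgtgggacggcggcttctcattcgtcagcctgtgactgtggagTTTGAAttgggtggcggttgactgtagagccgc
UHRF1, the first of 3 windows, chr19:4909391-4909510, plus strand: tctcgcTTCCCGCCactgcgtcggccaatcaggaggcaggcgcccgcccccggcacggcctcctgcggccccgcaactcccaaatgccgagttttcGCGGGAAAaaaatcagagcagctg

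The CDCA8 stretch holds TTTGAA from 23 bases before the start, and the UHRF1 stretch holds E2F letters from 104 bases and, on the other strand, from 14 bases before it. The medians of genes with and without the letters were set side by side, with no test. The median at 24 h was -1.88 over 24 late targets with CHR letters and -1.86 over 7 without. It was -1.71 over 22 G1/S targets with E2F letters and -1.51 over 7 without.

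The genes whose profile over the 4 arrays was most like that of a member were found by Euclidean distance on the log2 scale, after each gene's own mean was subtracted. For MYBL2 they were the linker histone gene H1-1 at a distance of 0.058, then DLGAP5 at 0.087, GTSE1 at 0.094, GINS1 at 0.096 and ESCO2 at 0.098. DLGAP5 and GTSE1 are on the late target list and GINS1 on the G1/S list. For FOXM1 they were the lamin gene LMNB2 at 0.039, OXCT1 at 0.050, TUBGCP3 at 0.056, TRAIP at 0.063 and the late target CKS2 at 0.069. For MYBL1 they were CA13 at 0.030, the tubulin gene TUBA1B at 0.077, FAM83B at 0.087, AHCTF1 at 0.098 and ZNF473 at 0.11. The neighbours of MYBL1, picked for nearness in these same values, were at -0.52 to -0.35 at 6 h and -0.99 to -0.80 at 24 h. None of them is on a target list. The late and G1/S lists hold only 37 and 34 measured genes, among 10707 named genes kept. When every probe set of a gene was averaged, AHCTF1 was at -0.098 at 6 h and -0.44 at 24 h, TUBA1B at -0.25 and -0.46, and TUBGCP3 at -0.65 at 24 h.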

How the data were processed

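Messenger RNA of WM35 cells was measured on 4 arrays, 1 for each treatment and time, from 100 ng of total RNA per the labels. The authors' deposited table holds log2 expression for 27631 probe sets. That these are log2 values follows from their range, 2.48 to 13.6. Medians and quartiles were alike on all arrays. How probes were summarised and normalised is not stated in the sources used here. Per the submitters' processing notes the build was hg19. For arrays, their number limits the precision.

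Symbols came from the platform annotation, which gives 20429 probe sets 1 symbol and 4232 more than 1, and leaves 2970 without. They were updated by Entrez identifier with RefSeq GRCh38.p14, which matched 20362. Probe sets with several symbols were not named. Probe sets with a mean at or above the 40th percentile, 3.96, were kept, leaving 16579, and the highest-mean probe set stood for a gene.

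Single arrays were subtracted, with no test, and counted at 2-fold. limma 3.58.1 in R 4.3.3 (trend, Benjamini-Hochberg at 0.05 over all kept probe sets) fitted C646 over both times with time as a term, and C646 at 24 h against both DMSO arrays. The scripts were tested on simulated data. The alternatives were quantile normalization, other filters, the mean of a gene's probe sets, both DMSO arrays as control, 1.5-fold, no trend and each array left out.

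The members and lists were chosen with earlier results of these data known. The rule for named genes took all members, all measured partners, modifiers, relatives and p53 genes, the 3 lowest and 2 highest genes at 24 h of each other list, and the 5 nearest profiles.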

Additional observations from a re-analysis of the deposited data

Results flagged for a closer look

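LIN52 and RBBP4 had C646 differences of opposite sign at the 2 times. LIN52 was at 0.0201 at 6 h and -0.167 at 24 h, and RBBP4 at 0.0742 at 6 h and -0.28 at 24 h. With 1 array per group the difference between the times was not tested. All 4 values lay inside the central 95% of the differences between the DMSO arrays, from -0.36 to 0.32, and the mean of the 5 RBBP4 probe sets had the same sign at both times, at -0.17 and -0.40.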

How the results depend on the processing

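The counts of members past 2-fold were the same with quantile normalization and with the mean of a gene's probe sets, and so were those of C646 against DMSO with both DMSO arrays as control. With 1.5-fold in place of 2-fold, 5 of 7 members were lower at 24 h, where 5.34% of all probe sets were. Between C646 at 24 h and 6 h, 4 of 7 members were lower, where 5.19% of all probe sets were. At 6 h, 4 of 37 late targets were 1.5-fold lower, where 1.26% of all probe sets were. At 24 h over these settings MYBL2 ranged from -1.87 to -1.86, LIN9 from -1.54 to -1.51 and FOXM1 from -1.12 to -1.08. With 1 array left out, the fit over both times also had to lose its time term, and it then called between 0 and 2252 probe sets. The count of 2252 belongs to the set without the C646 array of 6 h, which is the fit of C646 at 24 h against both DMSO arrays, so the array and the time term were changed together. The fit of C646 at 24 h against both DMSO arrays called 2252 probe sets, and 1273 without the filter, and MYBL2, FOXM1, MYBL1, LIN9 and LIN54 passed in each of its settings. LIN52 was removed by the filter at the 60th percentile. No array can be left out of that fit without losing its residual degree of freedom. The labels give no replicate numbers, so no replicate block was fitted, and time as a term pairs the arrays of each time. With both DMSO arrays as control, CCNA2 was at -0.047 at 6 h, against -0.24 with the DMSO array of 6 h. With every probe set of a gene averaged, MDM2 was at -0.27 at 6 h, against -0.092 for its highest-mean probe set. Detection calls were not used here, so how far a low level such as that of LIN52 lies above background is unknown.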
